A study of Homo sapiens with 18 samples.

Results

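The immunoglobulin-like adhesion molecules described here are 10 named genes, BCAM, CEACAM1, CEACAM6, L1CAM, ALCAM, MCAM, ICAM1, CADM1, F11R and CXADR, looked up by symbol in a table of 12853 genes. Of these, 9 were matched and are described, and CEACAM6 is not analysed here. BCAM and CEACAM1 were selected on these data, chosen by their values rising from the sensitive to the resistant line in all 3 pairs, so their differences between sensitive and resistant lines are given as a description with no test. The other 7 genes share the immunoglobulin fold and an adhesive role at the cell surface, and they were tested in a fit across all genes.

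RNA was sequenced from 3 pairs of human ovarian cancer lines, each with a platinum-sensitive and a resistant member and 3 libraries a line, to ask which transcripts accompany acquired resistance. A2780 is an ovarian line that the labels call endometrial or ovarian cancer cells, and CP70 is its derivative selected for resistance in culture. The PEA lines grew out of ascites cells of a single patient with high-grade serous ovarian cancer (HGSOC), PEA1 from a sample that preceded any platinum and PEA2 from a later sample, when the tumour had returned and was resistant. PEO1 and PEO4 came from another HGSOC patient, both after platinum-based chemotherapy, PEO1 before and PEO4 after resistance became clinical. All lines grew in RPMI-1640 with 2 mM glutamine and 10% serum, and the labels give no drug treatment of the RNA-seq cultures. Each pair is 1 sensitive and 1 resistant line, and nothing in the labels says that the 3 libraries came from separate cultures, so each test measures the spread between libraries of these lines only.

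Adhesion molecules of this superfamily stand on the cell surface with a row of extracellular immunoglobulin domains, a single membrane span and a cytoplasmic tail, and they bind a copy of themselves or another ligand on a neighbouring cell or in the matrix. BCAM (the Lutheran antigen) is a receptor for laminins that contain the alpha 5 chain, and CEACAM1 binds other CEACAM molecules and can recruit tyrosine phosphatases through its tail. In epithelial tissue and carcinomas these molecules take part in cell contact, in tight junctions and in attachment to basement membrane, and L1CAM and ALCAM in particular are followed as tumour markers.

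The libraries held 1344098 to 7067336 reads on the listed genes, with the fewest in PEA1, and 3 reads corresponded to between 0.452 and 2.18 CPM (reads of a library scaled to a common total). Values are log2 CPM with 0.5 reads added, so a gene without reads shows a value set by the depth of its library. In RNA from a whole culture, fewer cells with a transcript and less transcript per cell cannot be told apart. Marker lists showed that the lines are unlike each other. The 8 epithelial markers summed to at most 5.16 CPM in A2780 and 98.0 CPM in CP70, with CDH1 at 0 reads in both lines, and the 7 ovarian serous markers to at most 1.19 CPM in either, whereas PEO1 and PEO4 held 3428 CPM or more of the first list. Within the PEA pair the epithelial sum went from 157 to 203 CPM in PEA1 to 3849 to 4064 CPM in PEA2, and the mesenchymal sum (6 of 8 markers matched, mostly VIM) from 2747 to 3018 CPM down to 112 to 124 CPM. PEA2 also held reads of the leukocyte gene PTPRC and the endothelial gene CDH5 (up to 70 and 88 reads a library), which had none in PEA1. Only 2 of 7 endothelial markers were matched, and the other, EGFL7, did not rise (mean log2 CPM 3.84 in PEA1, 3.39 in PEA2). In the PEO pair the mesenchymal sum went from 13.4 to 21.8 CPM in PEO1 to 118 to 124 CPM in PEO4, with COL3A1 at 0 reads and at up to 193. The leukocyte sum (3 of 8 markers matched) went from 18.2 to 23.5 CPM to 56.1 to 64.1 CPM there. This sum was mostly ITGB2 (mean log2 CPM 4.32 in PEO1 and 5.92 in PEO4). LCP1 fell from 0.50 to -1.24 on few reads, and PTPRC had 0 reads in both lines. In the A2780 pair the mesenchymal sum went from 2628 to 2854 CPM in A2780 to 3776 to 3834 CPM in CP70, mostly VIM and COL3A1, and COL1A2, DCN and LUM (at most 12 reads a library in A2780) reached up to 95, 150 and 72 reads in CP70, beside the epithelial sum. Marker lists thus move with the results of all 3 pairs below, and their part in them was not tested.

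BCAM lies on the forward strand at chr19:45312328-45324678 (GRCh37, GENCODE) and CEACAM1 on the reverse strand at chr19:43011456-43065386. The sequences below are the 250 bases before the RefSeq start of each gene, shown so that the starts of the 2 genes chosen for rising can be compared, and each was placed on GRCh37 by exact match. The BCAM run is chr19:45312066-45312315 on the forward strand, with the GC box (GGGCGG on either strand, 5 matches counting those that share letters) in capitals. The CEACAM1 run is chr19:43032634-43032883 on the reverse strand, with the 1 match to GAAANNGAA, the element bound by interferon regulatory factors, in capitals. The CEACAM1 start lies inside the longer GENCODE span, and an antisense gene (LIPE-AS1) overlaps CEACAM1 in that annotation.
BCAM: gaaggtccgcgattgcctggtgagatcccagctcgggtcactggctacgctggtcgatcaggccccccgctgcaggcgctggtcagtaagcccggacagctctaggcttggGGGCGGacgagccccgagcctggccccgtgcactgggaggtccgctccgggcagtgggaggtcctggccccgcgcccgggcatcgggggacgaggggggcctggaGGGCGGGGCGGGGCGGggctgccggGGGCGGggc
CEACAM1: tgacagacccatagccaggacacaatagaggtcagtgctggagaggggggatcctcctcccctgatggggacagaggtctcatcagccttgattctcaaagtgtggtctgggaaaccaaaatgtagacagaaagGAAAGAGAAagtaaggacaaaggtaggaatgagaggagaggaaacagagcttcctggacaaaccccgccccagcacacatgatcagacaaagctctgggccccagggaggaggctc

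Taken over the 300 bases that end 50 bases after the start, the BCAM window was 76.0% G or C and the CEACAM1 window 53.7%, against a median of 58.3% over 27305 promoters. BCAM held only GC boxes among the 7 motifs searched, and GGGCGG is found in 44.6% of all promoters. CEACAM1 held 1 GC box, 1 GAAANNGAA (8.29% of all promoters) and 1 match to the NF-kB consensus (10.8%). Neither window held CACGTG (7.43%), CACCTG (20.6%), TGANTCA (7.76%) or TTCNNNGAA (7.88%), letters searched on both strands. All 6 members with a promoter entry (BCAM, CEACAM1, L1CAM, ALCAM, MCAM and ICAM1) held at least 1 GC box. These matches describe letters and not binding.

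BCAM was higher in the resistant line of every pair. Its log2 CPM was 2.12, 2.25 and 2.48 in the 3 A2780 libraries and 4.81, 4.49 and 4.51 in CP70, a difference of 2.32 ± 0.26 (SD of the difference, n = 3 and 3) or 4.98-fold. In PEA1 it was 2.00, 1.68 and 2.11 on 4 to 7 reads a library, and in PEA2 5.04, 5.35 and 5.09, a difference of 3.23 ± 0.28 or 9.37-fold. In PEO1 it was 7.90, 8.03 and 7.91 and in PEO4 9.77, 9.88 and 9.89, a difference of 1.90 ± 0.095 or 3.72-fold. No library of a sensitive line reached the level of any library of its resistant partner. BCAM was chosen for rising, and how many of all genes separate in this way was not counted. The starting points were far apart. The sensitive PEO1, at 247 ± 11.9 CPM, held more BCAM than the resistant CP70 (24.3 ± 3.22 CPM) and PEA2 (35.7 ± 4.32 CPM), and PEO4 reached 919 ± 41.6 CPM. The order from high to low was PEO4, PEO1, PEA2, CP70, A2780 and PEA1, and no neighbours in it overlapped.

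CEACAM1 was also higher in each resistant line, but only in the A2780 pair did both lines hold it well above the floor. It had 40, 53 and 19 reads in the A2780 libraries and 347, 264 and 216 in CP70, or 11.1 ± 2.59 and 58.7 ± 3.32 CPM, a log2 difference of 2.41 ± 0.34 and 5.30-fold. In the PEA pair it had 0 reads in every PEA1 library, which allows up to 2.18 CPM in the shallowest, and 1, 7 and 4 reads in PEA2. Against 3 reads over the 3 PEA1 libraries, PEA2 was 2.40-fold higher, a ratio that leaves out counting error in PEA2. Folds given below as at least were made in the same way, against 3 reads in a line without any. The CEACAM1 log2 difference of 2.19 fell to 0.75 when 2 reads were added in place of 0.5. In the PEO pair it had 0, 2 and 1 reads in PEO1 and 3, 6 and 8 in PEO4, a ratio of 8.48 that rests on 3 reads in PEO1. Its log2 difference of 2.70 there ran from 1.82 to 3.44 over the alternatives. The resistant PEA2 (1.46 ± 0.81 CPM) and PEO4 (2.10 ± 1.11 CPM) held far less CEACAM1 than the sensitive A2780. The order was CP70, A2780, PEO4, PEA2, PEA1 and PEO1, in which PEO4 overlapped PEA2 and PEA1 overlapped PEO1. Of 12 CEACAM genes listed only CEACAM1 was matched, and reads from exons it shares with close relatives cannot be assigned with certainty.

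**Figure D1:**
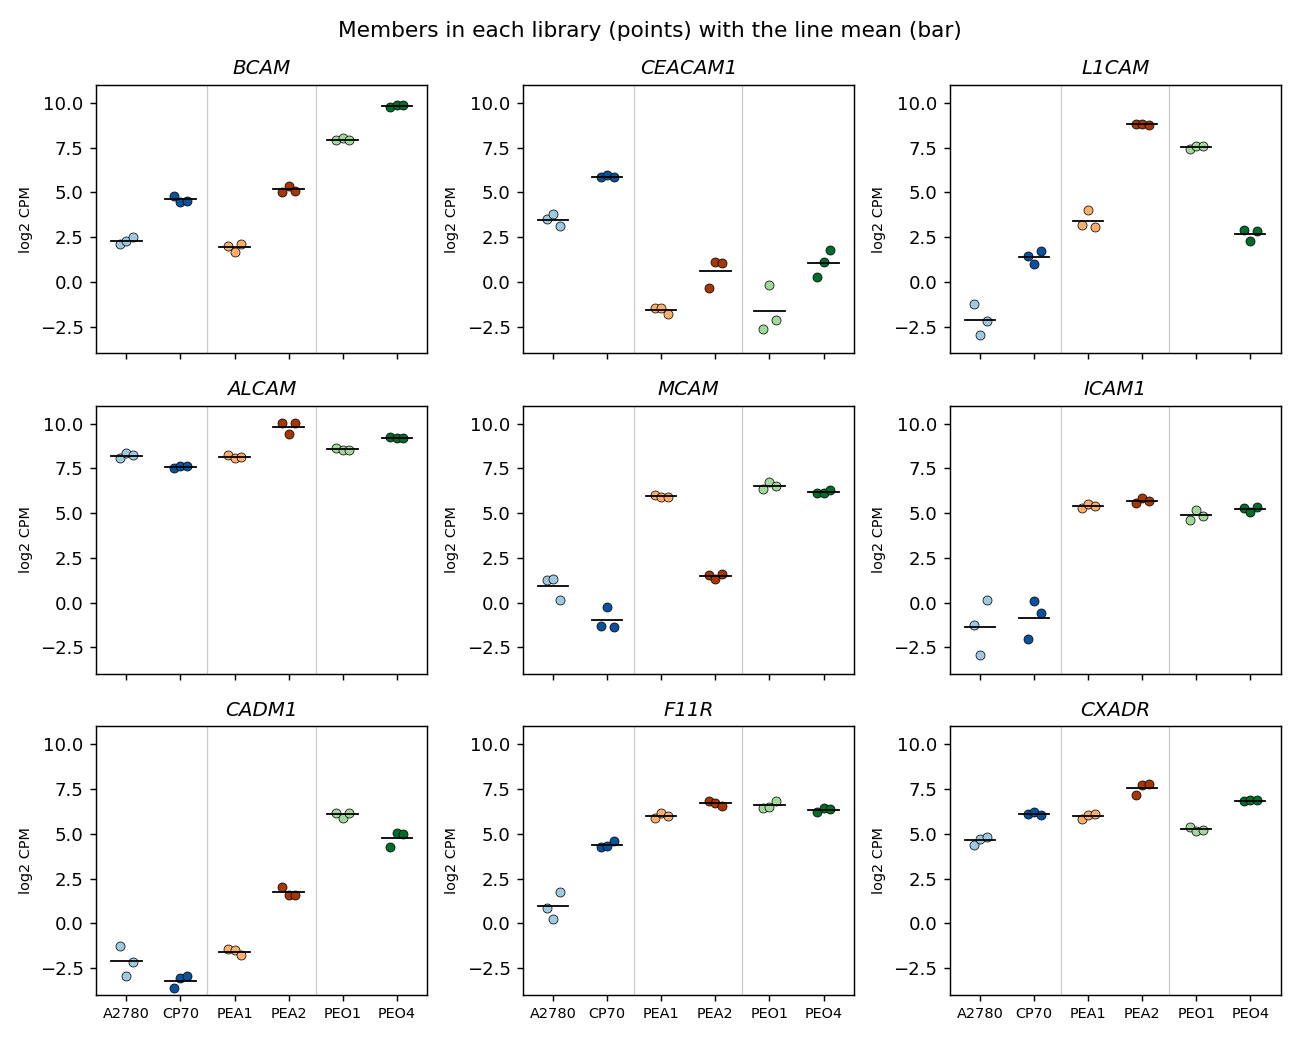
log2 CPM (y axis, with 0.5 reads added) of the 9 genes in each of the 18 libraries (points, 3 a line), with the mean of the line as a bar; grey lines part the pairs, pale points are sensitive and dark points resistant lines. BCAM and CXADR step up within each pair, L1CAM steps up in CP70 and PEA2 but down in PEO4, and points below about 0 stand for at most a few reads.

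The 7 genes that were not picked for their direction did not share one. In CP70 against A2780, limma (Benjamini-Hochberg FDR below 0.05 over all genes) called 3 higher (L1CAM, F11R and CXADR) and 3 lower (ALCAM, MCAM and CADM1), against 22.2% of all genes higher and 17.7% lower. In PEA2 against PEA1 it called 5 higher (L1CAM, ALCAM, CADM1, F11R and CXADR) and 1 lower (MCAM), where 32.5% and 29.4% of all genes were called. In PEO4 against PEO1 it called 2 higher (ALCAM and CXADR) and 2 lower (L1CAM and CADM1), against 19.6% and 21.9%. Past 4-fold there were 2, 3 and 1 of these genes in the pairs in this order, where 9.06%, 14.1% and 6.22% of all genes passed. The median log2FC of the 7 genes was 0.50, 1.57 and -0.24, and that of all genes -0.02, 0.01 and -0.02.

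CXADR, the coxsackievirus and adenovirus receptor of epithelial tight junctions, was the 1 gene of the 7 called higher in all 3 resistant lines, and its 3 differences were close in size. It lies at chr21:18885361-18965897. Its log2 CPM was 4.40, 4.68 and 4.83 in A2780 and 6.11, 6.20 and 6.02 in CP70, a log2FC of 1.47 ± 0.15 (SE, limma FDR 7.65e-08). It was 5.81, 6.04 and 6.12 in PEA1 and 7.15, 7.74 and 7.79 in PEA2, a log2FC of 1.57 ± 0.15 (FDR 1.79e-08). It was 5.37, 5.15 and 5.20 in PEO1 and 6.81, 6.87 and 6.87 in PEO4, a log2FC of 1.61 ± 0.15 (FDR 3.69e-08). Sensitive and resistant libraries did not overlap in any pair, though the share of all genes that separate so was not counted. The folds were 2.78, 2.96 and 3.05. Across all genes, 205 of 12853 (1.59%) were called higher in all 3 pairs.

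L1CAM, a homophilic adhesion molecule of neurons that carcinomas can express, changed the most among the 7 and in opposite directions. It had 1, 0 and 0 reads in A2780 and 16, 8 and 12 in CP70, a ratio of 24.7 (95% counting interval 4.16 to 1002) with a log2FC of 3.51 ± 0.34 (limma FDR 4.99e-08), which was 2.02 with 2 reads added. In the PEA pair its reads went from 12, 22 and 14 in PEA1 to 849, 1546 and 949 in PEA2, 41.6-fold higher (log2FC 5.38 ± 0.34, FDR 5.89e-11). In the PEO pair they went from 533, 528 and 1299 in PEO1 to 21, 14 and 17 in PEO4, 29.3-fold lower (log2FC -4.87 ± 0.34, FDR 9.55e-10). The resistant PEA2 and the sensitive PEO1 were thus the L1CAM-rich lines, at 444 ± 9.48 and 186 ± 11.1 CPM, and PEO4 held 6.28 ± 1.40 CPM. The annotation places L1CAM at chrX:153126969-153151627 with an antisense gene (L1CAM-AS1) and a second protein-coding model over it, and it is not stated that reads were counted by strand.

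ALCAM (CD166, chr3:105085753-105295744), which binds itself and the lymphocyte receptor CD6, was high in every line and changed least between them. Its line means ran from 190 ± 7.38 CPM in CP70 to 919 ± 193 CPM in PEA2, a range of 2.25 on the log2 scale where L1CAM spanned 10.9. It fell in CP70 by 0.64 on the log2 scale (limma FDR 0.000168) and rose in PEA2 by 1.68 (FDR 2.41e-10) and in PEO4 by 0.65 (FDR 0.000148), each ± 0.12 (SE). The libraries of each pair did not overlap, and the share of all genes that separate so was not counted.

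MCAM (CD146), a receptor for laminin alpha 4 best known from endothelium and melanoma, went down where it changed. It had 89, 84 and 105 reads in PEA1 and 5, 8 and 6 in PEA2, 22.3-fold lower (log2FC -4.48 ± 0.31, limma FDR 1.99e-10), and -5.12 after quantile normalization. In the A2780 pair it was low throughout, at 8, 9 and 2 reads in A2780 and 2, 3 and 1 in CP70 (log2FC -1.87, FDR 5.45e-05). In the PEO pair its mean log2 CPM was 6.51 in PEO1 and 6.18 in PEO4, a difference of -0.33 (95% interval -0.98 to 0.32, FDR 0.428). That last difference passed when the pair was fitted alone (FDR 0.0236) and with voom weights (FDR 0.0186). MCAM (chr11:119179239-119192231) overlaps the gene CBL on the opposite strand in the annotation.

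CADM1, which joins neighbouring epithelial cells through homophilic contacts and nectin-like partners, was highest in the PEO lines and near the floor elsewhere. It had 221, 167 and 478 reads in PEO1 and 56, 98 and 77 in PEO4, a log2FC of -1.32 ± 0.41 (limma FDR 0.0136), and without PEO4 replicate 1 the FDR was 0.0743. In PEA1 it had 0 reads in each library and in PEA2 7, 10 and 6, at least 4.60-fold higher (FDR 7.73e-07). The fitted log2FC of 3.31 there was 1.56 with 2 reads added. CADM1 lies at chr11:115039938-115375675 with antisense genes over it. In the A2780 pair there was 1 read in all of A2780 and 0 in CP70. No fold is given there, and the call counted above (FDR 0.0412) rests on that read and on depth.

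F11R (JAM-A), a tight junction molecule that binds itself and the integrin LFA-1, rose in CP70 and in PEA2. It had 6, 4 and 7 reads in A2780 and 116, 83 and 91 in CP70, 10.9-fold higher (log2FC 3.44 ± 0.25, limma FDR 4.37e-10), with a log2FC of 2.38 after quantile normalization. In the PEA pair it went from 63.9 ± 5.86 to 104 ± 9.32 CPM (log2FC 0.69, FDR 0.0197), a call lost without PEA1 replicate 1 (FDR 0.0623) or PEA2 replicate 1 (FDR 0.058). In the PEO pair the log2FC was -0.24 (95% interval -0.75 to 0.28, FDR 0.477). After the rise, CP70 at 20.9 ± 2.67 CPM still held less F11R than any of the 4 serous lines, which lay between 63.9 and 104 CPM. An unnamed protein-coding model overlaps F11R (chr1:160965001-160991133) on the same strand.

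ICAM1, the ligand of leukocyte integrins LFA-1 and Mac-1 and a gene induced by inflammatory cytokines, was near the floor in A2780 and CP70 only. It had 0 to 4 reads in every A2780 and CP70 library, and 54 to 199 reads in every library of the 4 serous lines. None of the pair differences of this gene (chr19:10381769-10397291) passed by limma at an FDR or an unadjusted p below 0.05. The log2FC was 0.50 for CP70 (95% interval -0.64 to 1.64), 0.29 for PEA2 (-0.85 to 1.43) and 0.33 for PEO4 (-0.81 to 1.47), with limma FDR of 0.488, 0.663 and 0.668. The spread behind these intervals was estimated over all 6 lines, the near-empty ones included.

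**Figure D2:**
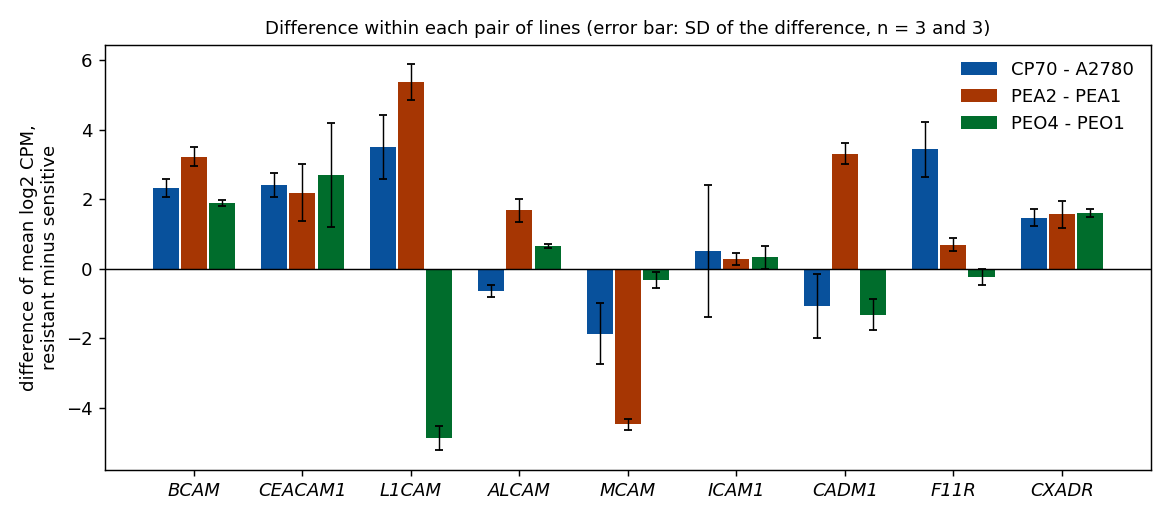
Difference of mean log2 CPM, resistant minus sensitive line (y axis), for each of the 9 genes in the A2780, PEA and PEO pairs; bars are differences of means of 3 libraries and error bars the SD of the difference. BCAM, CEACAM1 and CXADR stand above 0 in each pair and L1CAM spans 5.38 to -4.87. Some bars have a line with at most 3 reads in all, so their height depends on the 0.5 reads added. They are CEACAM1 in the PEA and PEO pairs, L1CAM and ICAM1 in the A2780 pair and CADM1 in the A2780 and PEA pairs.

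The size of the change was compared between pairs for the same 7 genes in the same fit, 21 contrasts in all, of which 14 passed at an FDR below 0.05. Of the 7 genes, 5 changed differently in PEA2 than in CP70, 4 in PEO4 than in CP70 and 5 in PEA2 than in PEO4, each against its own sensitive line, where 57.5%, 47.5% and 58.7% of all genes did. For L1CAM the change in the PEA pair exceeded that in the PEO pair by 10.25 ± 0.48 (SE) on the log2 scale (limma FDR 1.59e-12). CXADR and ICAM1 passed in none of the contrasts. The CXADR changes differed by 0.095, 0.14 and -0.043 ± 0.21 (SE), with FDR of 0.721, 0.618 and 0.875.

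Read per kilobase of exon, which allows genes to be compared with each other, the lines differed in which molecule led. Mean RPKM (reads per kilobase of exon scaled to library size) over the 9 genes summed to 49.3 in A2780, 58.1 in CP70, 85.3 in PEA1, 265 in PEA2, 181 in PEO1 and 327 in PEO4. ALCAM made up 84.1% of this sum in A2780 and led in CP70 (45.6%), PEA1 (46.1%), PEA2 (48.4%) and PEO1 (29.3%). BCAM followed closely in PEO1 at 27.4% and led in PEO4 at 56.3%, with 184 RPKM against 83.0 RPKM of ALCAM. CXADR with 19.7% and CEACAM1 with 18.3% came after ALCAM in CP70. L1CAM came after ALCAM in PEA2 with 23.1%, and held 14.2% in PEO1 and 0.26% in PEO4. Exon lengths are those of the GRCh37 annotation and may differ from the ones used for counting.

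**Figure D3:**
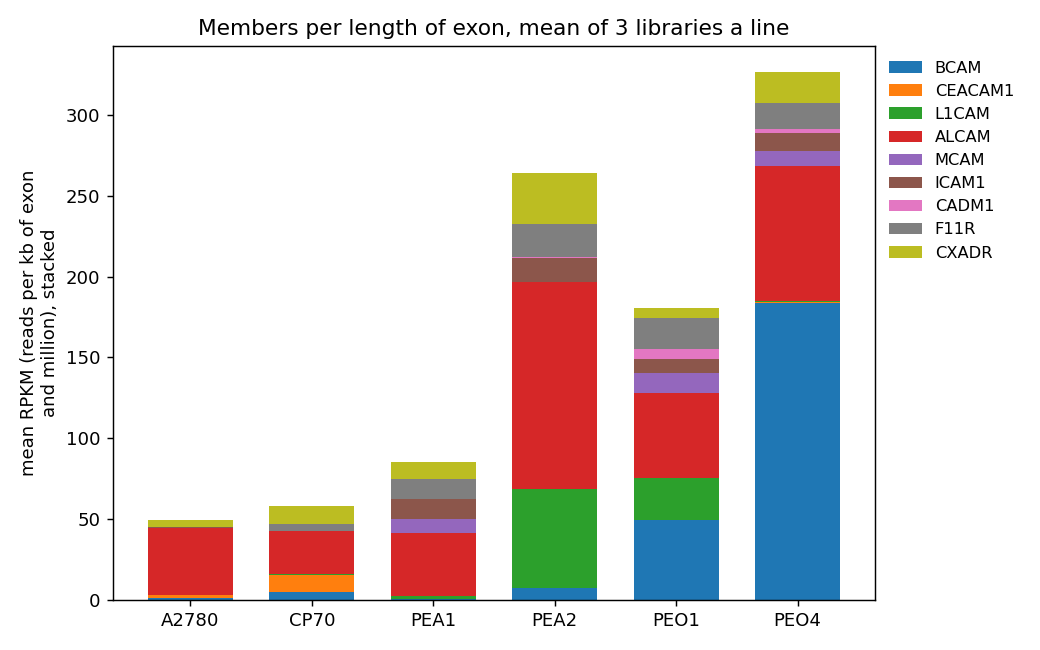
Mean RPKM (y axis, from 0) of the 9 genes stacked for each line, means of 3 libraries without error bars. ALCAM fills most of the A2780 column, and BCAM at 184 RPKM fills 56.3% of the PEO4 column.

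The partners of these molecules were followed through a list of 37 laminin chains, integrins, galectins, phosphatases, junction and membrane scaffold proteins and sheddases, of which 32 were matched. In the A2780, PEA and PEO pairs, 15, 12 and 11 were called higher and 5, 12 and 10 lower, where 22.2%, 32.5% and 19.6% of all genes were called higher and 17.7%, 29.4% and 21.9% lower. These partners had a median log2FC of 0.26, -0.08 and 0.10. Without CP70 replicate 3, 13 in place of 20 partners were called in the A2780 pair. Higher in all 3 resistant lines were 6 of the 32 (LAMA5, LAMA4, PTPN6, MSN, MLLT4 and ITGB2), or 18.8%, beside the 1.59% of all genes. This list was chosen with earlier results of these data known, so its share is a description only.

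LAMA5, the laminin chain that BCAM binds, was higher in each resistant line. Its log2FC was 0.60 for CP70, 3.30 for PEA2 and 1.06 for PEO4, each ± 0.16 (SE), with limma FDR of 0.00558, 1.6e-12 and 2.69e-05. PEO4 had the highest mean of LAMA5 (763 CPM) as it had of BCAM. LAMC1, another laminin chain of the list, fell in PEA2 by 1.02 (limma FDR 2.2e-10). It was not called in CP70 (log2FC 0.17) or PEO4 (0.14). LAMA4, the laminin chain MCAM binds, had 0 reads in A2780 and PEA1. It rose at least 5.49-fold in CP70 (14, 6 and 4 reads), at least 54.6-fold in PEA2, and by 3.91 on the log2 scale in PEO4 (FDR 1.39e-08), while MCAM itself was called lower in the first and second of these pairs.

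PTPN6 (SHP-1), a phosphatase that docks on the CEACAM1 tail, had a log2FC of 1.20, 2.53 and 0.86 in the A2780, PEA and PEO pairs (limma FDR 0.00266, 3.25e-07 and 0.0235). PTPN11, the other phosphatase of the list, was not called in any pair. Its log2FC was 0.02, 0.16 and -0.16 (limma FDR 0.894, 0.121 and 0.150). MSN, the membrane-to-actin linker moesin, rose by 0.40, 1.28 and 0.29, and MLLT4 (afadin, a junction scaffold) by 1.34, 0.81 and 0.34, each with a limma FDR of 0.0153 or less. ITGB2, the beta chain of LFA-1 and also 1 of the leukocyte markers, was called in each pair, but CP70 had only 4 reads of it in all and A2780 had 0. EPB41L3, the protein 4.1 family member that binds the CADM1 tail, was called lower in each pair, as were 155 of 12853 genes. It fell from 201, 275 and 115 reads in A2780 to 2, 0 and 1 in CP70, and at least 12.9-fold in PEO4, but its PEA call rests on 3 reads in PEA1.

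Other partners changed past 4-fold in 1 or 2 pairs. ANK3, an ankyrin that anchors L1-family tails, fell by 8.19 on the log2 scale in CP70 and by 2.87 in PEA2 (limma FDR 8.24e-16 and 6.25e-09). EGFR, with which L1-family molecules can signal, rose by 3.08 in CP70 and fell by 2.19 in PEO4. LAMB1 rose in CP70 by 4.20 and in PEO4 by 0.49, and fell in PEA2 by 0.80. EZR (ezrin) rose in CP70 by 2.61 and fell in PEO4 by 0.39. In PEA2 the integrin genes ITGB3 and ITGA4 fell by 6.17 and 5.50 and the galectin LGALS3 rose by 2.34.

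A wider list of 77 immunoglobulin adhesion genes outside the 10, of which 32 were matched, had more calls lower than higher in PEO4. There 2 were called higher and 16 lower (median log2FC -0.48), beside 19.6% and 21.9% of all genes. CP70 had 13 higher and 5 lower (median -0.07), beside 22.2% and 17.7%, and PEA2 had 9 higher and 10 lower (median -0.07), shares close to the 32.5% and 29.4% of all genes. By limma 0 were higher in all 3 resistant lines, also at an unadjusted p below 0.05, whereas voom weights gave 1 (MPZL2). Of all genes 1.59% were called higher in all 3, so 0 of 32 is near that share and says nothing about this list. AMIGO2 and KIRREL were called lower in each resistant line, as were 155 of 12853 genes. AMIGO2, a leucine-rich repeat and immunoglobulin protein, fell by 4.67, 0.90 and 0.67 on the log2 scale (limma FDR 1.13e-19, 8.16e-09 and 1.2e-06).

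Several genes of this list moved in opposite directions in different pairs. VCAM1, the ligand of integrin alpha 4 beta 1, had 0 reads in A2780 and 20 to 29 in CP70 (at least 17.6-fold higher), and 59 to 88 reads in PEA1 and 0 in PEA2 (at least 119-fold lower). JAM2, a relative of F11R, rose by 4.99 in CP70 and fell by 4.85 in PEA2 on the log2 scale. It had 3, 0 and 1 reads in A2780 and 0, 1 and 1 in PEA2, so both sizes depend on the 0.5 reads added. PVRL4 (nectin-4), an epithelial junction molecule, went from 17 reads in all to 0 in CP70 (at least 8.26-fold lower), and from 0 to 65 in PEA2 (at least 13.0-fold higher). It was also called lower in PEO4 (log2FC -1.15, limma FDR 0.0266). NEGR1 rose by 2.62 in PEA2 and fell by 4.69 in PEO4 and by 1.18 in CP70 (FDR 0.00735). Of the 32 genes, 14 (43.8%) were called higher in 1 pair and lower in another, as were 3 of the 7 (L1CAM, ALCAM and CADM1) and 27.5% of all genes.

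The remaining named genes of the list changed in 1 pair past 4-fold. In CP70, THY1 (CD90) rose by 3.43 on the log2 scale and MPZL3 at least 5.71-fold. In PEA2, MPZL2 (epithelial V-like antigen) rose by 5.30 and NRCAM, an L1 relative, by 2.19, while NCAM2 fell at least 6.67-fold. In PEO4, SIRPA, the receptor for CD47, fell by 4.15 (limma FDR 2.56e-14), while it rose by 1.14 in CP70 and fell by 1.04 in PEA2, and DSCAML1 fell by 3.94 and KIRREL3, on 1 read in each PEO4 library, by 5.04. Below 4-fold, NCAM2 was also called higher in PEO4 (log2FC 1.53, FDR 0.0383, at most 7 reads a library) and MPZL3 in PEA2 (1.77, FDR 0.000265), and THY1 lower in PEA2, on 3 reads in PEA1. MPZL2 was called higher in CP70 as well (1.97, limma FDR 0.00195), on 0 reads in A2780 and at most 4 a library in CP70. KIRREL3 was called lower in PEA2 (-1.997, limma FDR 0.0133), on 0, 0 and 7 reads in PEA1.

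**Figure D4:**
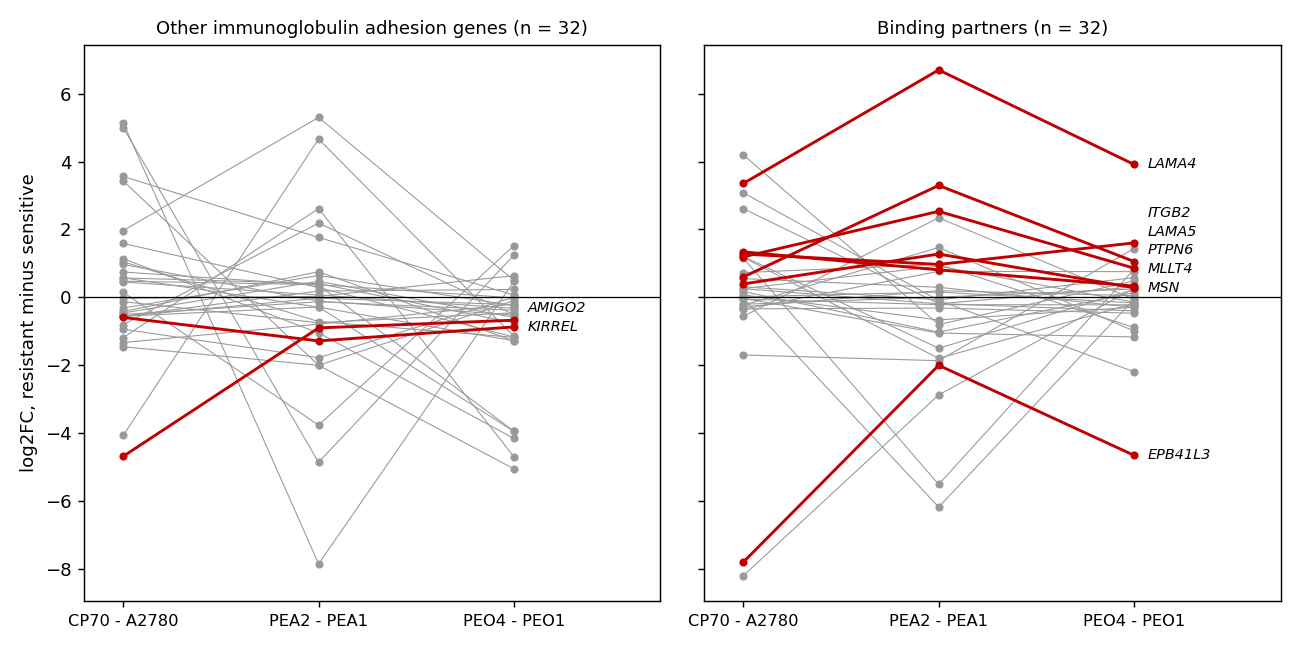
log2FC, resistant minus sensitive (y axis), of the 32 other immunoglobulin adhesion genes (left) and the 32 binding partners (right) in the 3 pairs (x axis), with 1 line a gene. Red lines are genes with 1 direction of call throughout the 3 pairs: AMIGO2 and KIRREL below 0 on the left, and 6 partners above 0 with EPB41L3 below 0 on the right.

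BCAM and CEACAM1 lie on the same arm of chromosome 19, and the tested genes next to them are given for comparison. Among the 10 tested genes nearest to BCAM, over 746 kb, 3, 1 and 3 were called higher and 1, 4 and 2 lower in the A2780, PEA and PEO pairs, beside 22.2%, 32.5% and 19.6% of all genes higher and 17.7%, 29.4% and 21.9% lower. By limma 0 were higher in all 3, also at an unadjusted p below 0.05 and with voom weights, which for 10 genes is near the 1.59% of all genes and says nothing about these neighbours. By limma BCL3 rose in CP70 by 2.65 (FDR 9.41e-09), CBLC in PEA2 by 3.52 (FDR 8.94e-08) and APOE in PEO4 by 2.18 (FDR 0.000721), each called higher in that pair only, and APOE fell by 6.51 in CP70. PVRL2 (nectin-2), the next tested gene after BCAM and itself an adhesion molecule, had log2FC of -0.02, 0.03 and 0.64.

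Among the 10 tested genes nearest to CEACAM1, over 1358 kb, limma called 0, 2 and 0 higher and 1, 5 and 1 lower, and 0 were higher in all 3. At an unadjusted p below 0.05, as with voom weights, 1, 2 and 0 were higher, and 0 in all 3. The shares of all genes are those given for BCAM, and 0 of 10 is again near the background. Those higher in PEA2 were ETHE1 (log2FC 1.49) and the gene ENSG00000231412, which has no symbol in the table (5.62). The tested genes are sparse there, and the nearest after CEACAM1 lies 822 kb away.

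**Figure D5:**
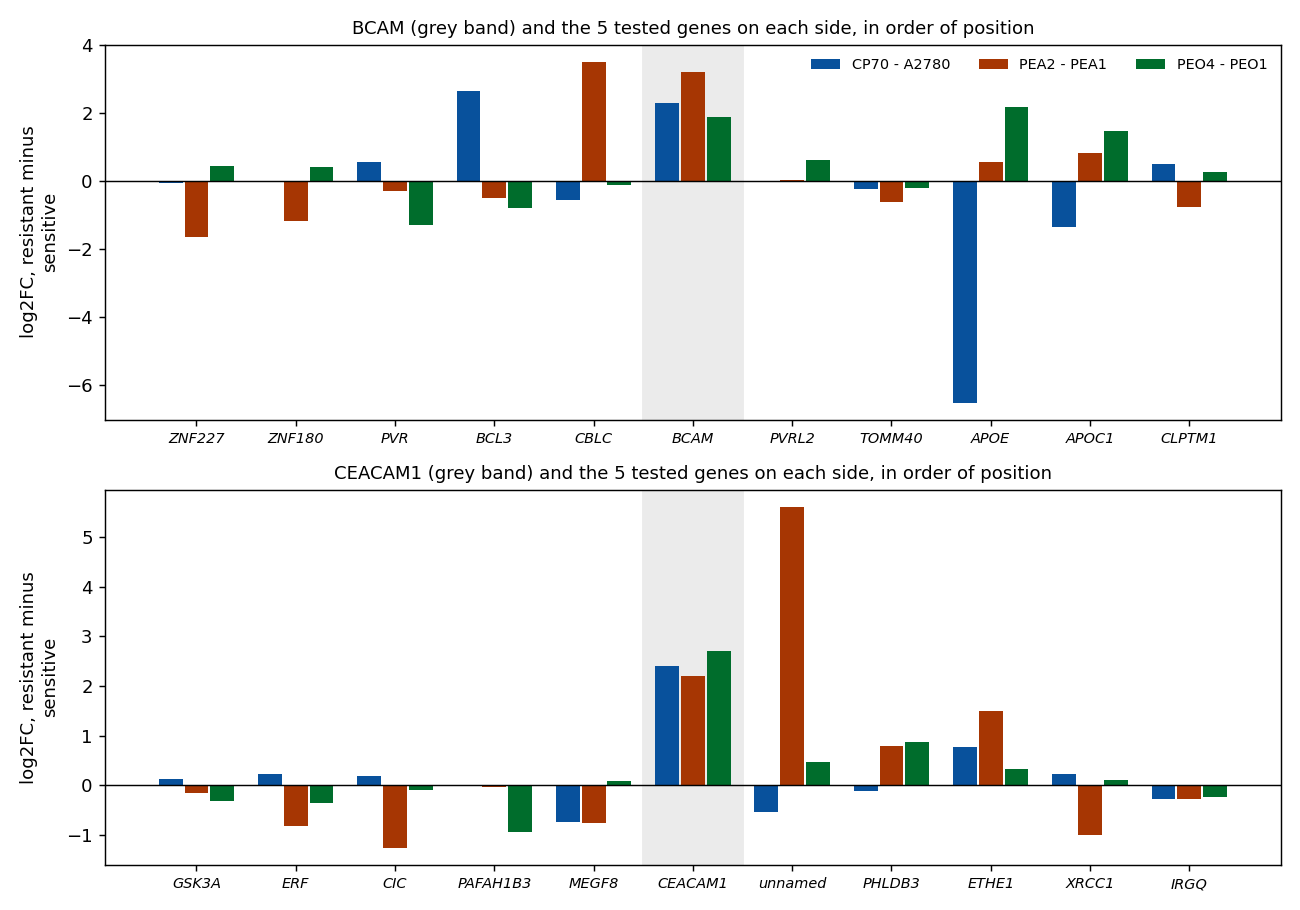
log2FC, resistant minus sensitive (y axis), of BCAM (top, grey band) and CEACAM1 (bottom, grey band) and of the 5 tested genes on each side in order of position, for the 3 pairs. No neighbour is called higher in all 3 pairs, and the bars of BCAM and CEACAM1 are the values used to choose them.

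Over the 18 libraries, which share 6 lines and so hold few independent points, the genes most like BCAM in log2 CPM among 12490 compared were BSDC1 (Pearson r = 0.974), WDR83OS (0.970) and BAIAP2 (0.968). Those most like CEACAM1 were ELOVL4 (0.953), PWP2 (0.950) and FZD8 (0.942). BCAM and CEACAM1 were not alike (r = -0.19). Among the 9 genes BCAM was most like CADM1 (0.848), ICAM1 most like F11R (0.880), and CEACAM1 ran against MCAM (-0.832) and ICAM1 (-0.822), as A2780 and CP70 held CEACAM1 and little of the others. These are descriptions of line levels and carry no test.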

How the data were processed

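Total RNA depleted of ribosomal RNA was made into directional libraries from 6 cell lines, 3 a line. The authors assigned reads to known genes of hg19 with featureCounts, normalised them with limma and deposited log2 CPM for 12853 genes (0.5 reads added, scaled library sizes). The submitters' processing notes also name Bowtie2. Whole reads (within 0.02 of a whole number) were recovered from 100% of values and gave depth, floors (3 reads over the 3 libraries of a line) and 95% counting intervals, which cover counting error only. A fold given as at least sets a line without reads at 3 reads and leaves out counting error in the other line.

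The log2 values were tested with limma 3.58.1 (R 4.3.3) in a single fit over all 18 libraries, a mean per line, with a variance trend. Calls needed an FDR below 0.05 over 12853 genes, and |log2FC| above 2 where 4-fold is stated. The calculation was tested on simulated data. The members and gene lists were chosen with earlier results of these data known. Named were the members, up to 4 list genes at either end past 4-fold in each pair, partners past 4-fold in any pair, 5 neighbours on each side and the 3 most alike genes (mean log2 value above 0). Genes called alike in all 3 pairs were also named, after their values were seen, as were LAMC1 and PTPN11. Promoters are from RefSeq (GRCh38.p14, no entry for CADM1, F11R and CXADR), and gene spans from GENCODE on GRCh37.

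The labels give no sequencing batch. Same-numbered libraries within a pair deviated with correlations of -0.18 to 0.22 over 6426 genes, so the numbers were not taken as a pairing. Alternatives were 2 reads added, each pair fitted alone, no trend, a filter on low means, quantile normalization, voom weights, a replicate block, |log2FC| above 1, and each library left out.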

Additional observations from a re-analysis of the deposited data

Results flagged for a closer look

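The change from sensitive to resistant line differed between pairs for 5 of the 7 tested adhesion genes, by the limma contrast of the 2 changes (FDR below 0.05). These 5 passed at least 1 of the 3 contrasts. Of all genes, between 47.5% and 58.7% passed each contrast taken singly, so such differences are common in this table. The share of all genes passing at least 1 was not counted. L1CAM moved most unevenly. Its change in the PEA pair lay 10.25 above that in the PEO pair (log2 scale) and 1.87 above that in the A2780 pair, and its change in the PEO pair lay 8.38 below that in the A2780 pair (difference -8.38). The A2780 change rests on 1 read in the A2780 line, and with 2 reads added these 3 values were 10.01, 3.23 and -6.78. The PEA change of CADM1 exceeded the PEO change by 4.62 and the A2780 change by 4.39, but PEA1 had 0 reads and the A2780 pair 1 in all, and with 2 reads added these were 2.85 and 2.31. For MCAM the PEA change differed from the PEO change by -4.15 and from the A2780 change by -2.61, and the PEO change from the A2780 change by 1.54. For F11R the PEA and PEO changes differed from the A2780 change by -2.75 and -3.68, and from each other by 0.93. For ALCAM the PEA change exceeded the A2780 change by 2.32 and the PEO change by 1.03, and the PEO change exceeded the A2780 change by 1.29.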

How the results depend on the processing

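Of 525 values recomputed for the 7 tested adhesion genes, 509 kept their direction and side of the threshold and 16 did not. For BCAM and CEACAM1, which were not tested, the differences that moved by more than 1 SD follow as a description. The BCAM difference was 1.79 for CP70 and 3.51 for PEA2 with quantile normalization, and 2.91 for PEA2 with 2 reads added. CEACAM1 gave 0.75 in the PEA pair with 2 reads added. ICAM1 in the A2780 pair turned to -0.025 with 2 reads added, and ran from -0.30 (without A2780 replicate 2) to 1.26 with a library left out, never past the threshold. CADM1 in the A2780 pair lost its call in 9 settings. With |log2FC| above 1, other immunoglobulin adhesion genes called were 11 in place of 18 in the A2780 pair and 11 in place of 18 in the PEO pair, and partners 12 in place of 20, 15 in place of 24 and 6 in place of 21 in the A2780, PEA and PEO pairs. Leaving out a library gave 13 to 21 partners in the A2780 pair. The replicate block left the count of adhesion genes called at 6 for PEA2 and 4 for PEO4, gave 5 in place of 6 in the A2780 pair (CADM1, FDR 0.0529), and moved no count by over 1.5 times. Depth limits CEACAM1 outside the A2780 pair, CADM1 outside the PEO pair and ICAM1 in the A2780 pair.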
